A study of Mus musculus with 32 samples.

Results

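The genes described are 10 of the 22850 in the expression table, taken by symbol: the mouse Fcγ receptor genes Fcgr1, Fcgr2b, Fcgr3, and Fcgr4, their shared signalling chain Fcer1g, the C1q chain genes C1qa, C1qb, and C1qc, the complement component gene C3, and C3ar1, which encodes the receptor for its fragment C3a. All 10 had a row, and none was removed. They were followed in 32 RNA-sequencing samples of β cells, vascular endothelial cells (ECs), and islet macrophages (MΦs) sorted from pancreatic islets of βVEGF-A; MIP-GFP mice.

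All mice, controls included, carried MIP-GFP, RIP-rtTA, and TetO-VEGF-A. RIP-rtTA is a doxycycline (Dox)-dependent activator under the rat insulin promoter, so that β cells make human VEGF-A when Dox is given, and MIP-GFP labels β cells through the mouse insulin promoter. The No Dox mice were untreated, and the 1wk Dox mice had received Dox for 1 week. The 1wk WD mice had received Dox for 1 week and had then been off it for 1 week (WD, withdrawal). The gate for β cells was GFP+ CD31- CD11b- (No Dox, 4 samples, 1wk Dox, 5, and 1wk WD, 3), that for ECs CD31+ (4, 1, and 5 in that order), and that for MΦs CD11b+ (4, 2, and 4). Islets of several mice went into 1 sample, so that p-values measure the spread between pools. CD11b also marks monocytes, neutrophils, and some dendritic cells, and the MΦ samples are therefore all CD11b+ islet cells.

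Fcγ receptors bind the constant part of IgG. FcγRI, FcγRIII, and FcγRIV, encoded by Fcgr1, Fcgr3, and Fcgr4, activate the cell through the γ chain encoded by Fcer1g, whereas FcγRIIB, encoded by Fcgr2b, inhibits it. C1q, built from A, B, and C chains, starts the classical complement pathway on antibody complexes and dying cells, and leads to the cleavage of C3, on which the complement pathways converge. MΦs are a main source of C1q and carry most of these receptors, which serve in the uptake of coated particles.

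The unit throughout is the score, the normalized value the authors deposited for each gene, rounded to a whole number with 1 as the lowest. Summed over genes, the scores of a sample ranged from 23465985 to 53441769. Read depth is unknown, so that low scores carry an unknown error. The sorted populations carried their defining genes: Itgam, which encodes CD11b, was at 20309 to 45478 in MΦs and at most 294 elsewhere. Pecam1, which encodes CD31, was at 61523 or higher in ECs and at most 7237 elsewhere, and Ins2 at 199281 or higher in β cells and at most 15116 elsewhere. However, the β cell samples also held 1031 to 540417 as the summed score of 10 pericyte and stromal markers, against 2963 to 11462 in MΦs, and C3 is given beside that sum below. Replicate 2 of the No Dox MΦ samples had 31.4% of its score in its top 10 genes, against 5.46% to 10.3% in the other MΦ samples. The labels number both 1wk Dox MΦ libraries apart from the other MΦ libraries and do not say whether they were prepared together, so that the 1wk Dox condition and any difference in preparation cannot be told apart.

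Fcgr2b, Fcgr4, Fcgr3, and Fcer1g lie in this order on chromosome 1 of mm9, the build of the table, between 172890689 and 173164496. C1qb, C1qc, and C1qa lie side by side on chromosome 4, between 136436044 and 136454718. Fcgr1 spans chr3:96086832-96098179, C3ar1 spans chr6:122797156-122806179, and C3 spans chr17:57343393-57367559 in the table. GENCODE M1, an annotation of this build, places 9 of the 10 at the same coordinates and C3 at others.

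Reads were 50 bp long, and among the 4 Fcγ receptor and 3 C1q genes 1 pair shared stretches of that length. Of the 50-base windows in Fcgr2b transcripts, 10.1% (166 of 1650) also occurred in Fcgr3 transcripts, which is 10.2% of the 1633 windows of Fcgr3. Neither Fcgr1, Fcgr4, nor any C1q gene shared a window with another of these 7 genes. The longest identical coding run, 129 bases, is shown because reads from it could be counted for either gene. It lies on the minus strand in exons 3 and 4 of both Fcgr2b-001 (chr1:172898111-172898212 and chr1:172896805-172896831) and Fcgr3-001 (chr1:172987822-172987923 and chr1:172984298-172984324). Capitals mark the shared run, with 20 bases on each side in lower case.
Fcgr2b: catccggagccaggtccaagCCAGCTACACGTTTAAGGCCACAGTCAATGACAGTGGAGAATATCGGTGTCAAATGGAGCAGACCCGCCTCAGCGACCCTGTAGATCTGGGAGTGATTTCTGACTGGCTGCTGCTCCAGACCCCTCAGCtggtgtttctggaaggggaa
Fcgr3: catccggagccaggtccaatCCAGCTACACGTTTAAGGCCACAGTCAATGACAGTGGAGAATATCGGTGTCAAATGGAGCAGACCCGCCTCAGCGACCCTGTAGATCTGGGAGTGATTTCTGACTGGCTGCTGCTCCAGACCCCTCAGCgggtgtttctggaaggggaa
The scores of Fcgr2b and Fcgr3 are uncertain to the extent that reads from the shared stretches, of which this run is the longest but not the only one, were split between them.

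Promoters are shown for Fcgr1, Fcgr3, Fcer1g, C1qb, and C1qc, the 5 members called higher in MΦs at 1wk Dox. The sequences are RefSeq's (GRCm38.p6, another build than the table's), the 250 bases before the start site, and 9 of the 10 members had an entry. The letters of 3 short motifs were searched on both strands: GAGGAA, the core bound by the myeloid factor PU.1, TTCNNNGAA, bound by STAT factors, and the core of the interferon-stimulated response element (ISRE), bound by interferon regulatory factors. Capitals mark the matches, and a GAGGAA on the reverse strand reads TTCCTC.
Fcgr1 (chr3:96293970-96294219, minus strand): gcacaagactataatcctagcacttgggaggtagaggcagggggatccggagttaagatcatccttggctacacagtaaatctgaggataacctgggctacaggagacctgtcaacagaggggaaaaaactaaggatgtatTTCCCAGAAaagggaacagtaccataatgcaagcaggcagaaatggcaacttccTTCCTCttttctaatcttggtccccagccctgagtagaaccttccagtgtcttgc
Fcgr3 (chr1:171059404-171059653, minus strand, the first of its entries): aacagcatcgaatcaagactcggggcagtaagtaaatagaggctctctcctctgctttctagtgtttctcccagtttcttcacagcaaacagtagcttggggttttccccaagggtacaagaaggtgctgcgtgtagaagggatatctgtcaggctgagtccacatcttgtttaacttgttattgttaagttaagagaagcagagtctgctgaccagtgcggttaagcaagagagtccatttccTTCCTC
Fcer1g (chr1:171234350-171234599, minus strand): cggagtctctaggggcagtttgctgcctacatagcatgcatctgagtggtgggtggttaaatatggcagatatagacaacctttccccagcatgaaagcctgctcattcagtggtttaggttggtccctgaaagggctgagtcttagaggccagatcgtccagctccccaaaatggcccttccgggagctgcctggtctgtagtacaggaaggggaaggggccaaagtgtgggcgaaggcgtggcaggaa
C1qb (chr4:136886201-136886450, minus strand): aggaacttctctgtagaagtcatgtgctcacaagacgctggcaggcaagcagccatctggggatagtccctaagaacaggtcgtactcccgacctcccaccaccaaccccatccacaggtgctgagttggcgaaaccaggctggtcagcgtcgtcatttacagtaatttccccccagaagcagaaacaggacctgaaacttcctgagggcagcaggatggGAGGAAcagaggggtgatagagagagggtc
C1qc (chr4:136892915-136893164, minus strand): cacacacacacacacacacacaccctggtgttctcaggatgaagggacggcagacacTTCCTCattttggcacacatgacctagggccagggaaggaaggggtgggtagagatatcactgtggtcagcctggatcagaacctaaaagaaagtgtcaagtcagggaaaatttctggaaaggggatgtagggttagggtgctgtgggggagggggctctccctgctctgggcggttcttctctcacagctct
GAGGAA was found in 5 of the 9 (Fcgr1, Fcgr3, Fcgr4, C1qb, and C1qc), and in 23.3% of the 32851 promoters in the RefSeq table. Fcer1g held none of the 3 motifs in this window. In Fcgr1 GAGGAA began 55 bases before the start site, and a TTCNNNGAA match began 109 bases before it, a motif that 7.02% of all promoters held and no other member had. The ISRE core was found in Fcgr4, and in 2.98% of all promoters. No match overlapped that of another motif in the sequences shown, and these matches are letters in the sequence, not measured binding.

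At No Dox, MΦs held the highest mean score of every member but C3. The called members, those at least 2-fold different with a Benjamini-Hochberg adjusted p under 0.05 over all genes (limma on log2(score + 1)), were 10 of 10 for MΦs above ECs, where 17.6% of 16380 genes were called higher. Of the 10, 9 were called for MΦs above β cells, where 19.7% of genes were called higher. A gene entered this fit where its mean score reached 20 in any of the cell types. The Fcγ receptor and C1q genes, 7 of the 10, did not reach it in ECs and entered through the cell types where they are higher. Fcgr1 and Fcgr4 entered through MΦs alone. The calls of such genes are therefore no independent support for a difference. C1qb had the highest level among the members, at 20480, 25549, 15678, and 32970 in the 4 No Dox MΦ samples, and its EC samples were at 9, 1, 1, and 4. Per kilobase of the longest transcript, the mean level in MΦs was 27950 for Fcer1g, 21755 for C1qb, 12845 for C1qc, and 9204 for Fcgr2b. C1qa was at 4270, Fcgr3 at 3981, and C3ar1 at 3102 per kilobase. Fcgr1 and Fcgr4, at 1068 and 918 per kilobase, and C3, at 671, were the lowest.

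**Figure D1:**
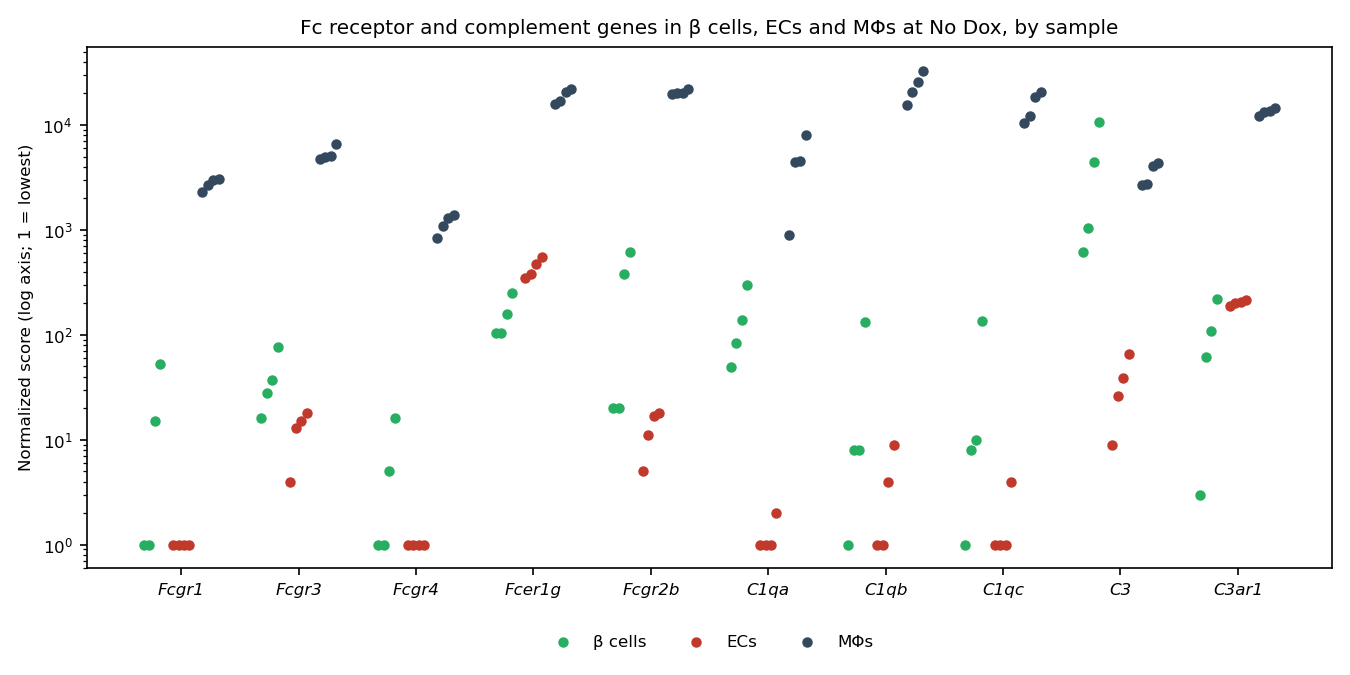
Scores of the 10 genes (log axis) in each No Dox sample of β cells, ECs, and MΦs, 4 samples each, with 1 as the lowest score. MΦ samples lie above both other cell types for 9 genes, and for C3 they lie among the β cell samples.

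ECs carried 2 members above the lowest scores with little spread. Fcer1g was at 379, 469, 554, and 352 in No Dox ECs, against 15799, 21868, 16909, and 20776 in MΦs. Its EC level was 1.87% to 2.94% of the mean MΦ level, and MΦs were higher by 5.43 ± 0.27 (SE) on the log2 scale (adjusted p = 2.72e-08, limma). C3ar1 was at 200, 206, 215, and 190 in No Dox ECs, and MΦs were higher by 6.03 ± 0.92 on the log2 scale (adjusted p = 0.000209, limma). MΦ markers ranged widely in the same ECs. As a percent of the MΦ mean, Cd68 was at 2.15% and Cd14 at 1.09% on average, near the 2.33% of Fcer1g and the 1.52% of C3ar1, and Mertk, also known from ECs, was the highest, at 57.7% to 67.7%. Emr1, which encodes F4/80, was at scores of 1 to 6. The summed score of the 11 markers was 5804 to 6647, and the median marker was at 0.083% to 0.139% of its MΦ level.

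The remaining members were near the lowest score in ECs, so that no fold is given. Fcgr1 and Fcgr4 were at 1, the lowest score, in all 4 No Dox EC samples. C1qa reached 2, C1qb 9, C1qc 4, Fcgr2b 18, and Fcgr3 18. C3 was higher, at 9, 39, 65, and 26.

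Genes that act with the 10 were also compared between MΦs and ECs at No Dox. Over all genes tested, 17.6% were called higher in MΦs and 15.9% lower. Of 19 genes of Fc receptor signalling tested, 15 were called higher in MΦs and 0 lower, among them Tyrobp and Pik3r5, at 8722 to 17477 and 15732 to 26019 in MΦs and at most 31 in ECs. Of 10 other Fc receptor genes, 6 were called higher, with Fcrls, Fcrl1, and Fcrlb the furthest apart. Of 11 complement receptor genes, 7 were higher, led by Itgam, the gene of the sort marker, Itgax, and Itgb2, and Cd93 was lower in MΦs, at 9675 to 11553 against 86144 to 97175 in ECs. Components were mixed, with 8 of 19 higher in MΦs and 1 lower (Masp2). C4b, Fcna, and C1rl differed most, yet none was above 575 in MΦs. Among the regulators, Cfhr2 was called higher in MΦs, and Cd59a and Cd46 were called lower, Cd59a being at 2 to 132 against 838 to 1211 in ECs.

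ECs and β cells were compared at No Dox for 8 members, since Fcgr1 and Fcgr4 did not reach a mean score of 20 in either and entered the fit only through MΦs. Of the 8, 1 was called higher in ECs (16.5% of genes were) and 4 were called lower (21.2% of genes were). Fcer1g was the member higher in ECs, by 1.58 ± 0.27 (SE) on the log2 scale (adjusted p = 0.000545, limma), and C1qa, C3, Fcgr2b, and Fcgr3 were lower. Of the 4, only C3 reached a mean of 20 in ECs as well. C1qa, Fcgr2b, and Fcgr3 had EC means of 1.25, 12.8, and 12.5 and counted among the 8 through their β cell scores. Their calls are therefore no independent support for a difference. C3ar1 in ECs and β cells could not be told apart by the test (2.04 ± 0.92, adjusted p = 0.0887, 95% interval 0.01 to 4.06).

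C3 did not differ in a called way between MΦs and β cells at No Dox. MΦ samples were at 4336, 2717, 4043, and 2684, and β cell samples at 1037, 620, 4405, and 10701. The β cell samples lay both below and above all MΦ samples, and the fitted difference was 0.52 ± 0.82 on the log2 scale (95% interval -1.27 to 2.30, adjusted p = 0.612, limma). The C3 scores of the β cell samples are set beside their stromal and MΦ marker sums further on.

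In MΦs, part of the Fc receptor and C1q genes rose after 1 week of Dox. Of the 10 members, 5 were called higher (Fcgr1, Fcgr3, Fcer1g, C1qb, and C1qc) and 0 lower, where 1.61% of 15014 genes were called higher. In 9 of the 10 both 1wk Dox samples lay above all 4 No Dox samples, as did those of 16.2% of all genes tested, and C1qa was the exception. The median log2 fold change of the 10 was 1.15, against 0.03 over all genes tested.

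**Figure D2:**
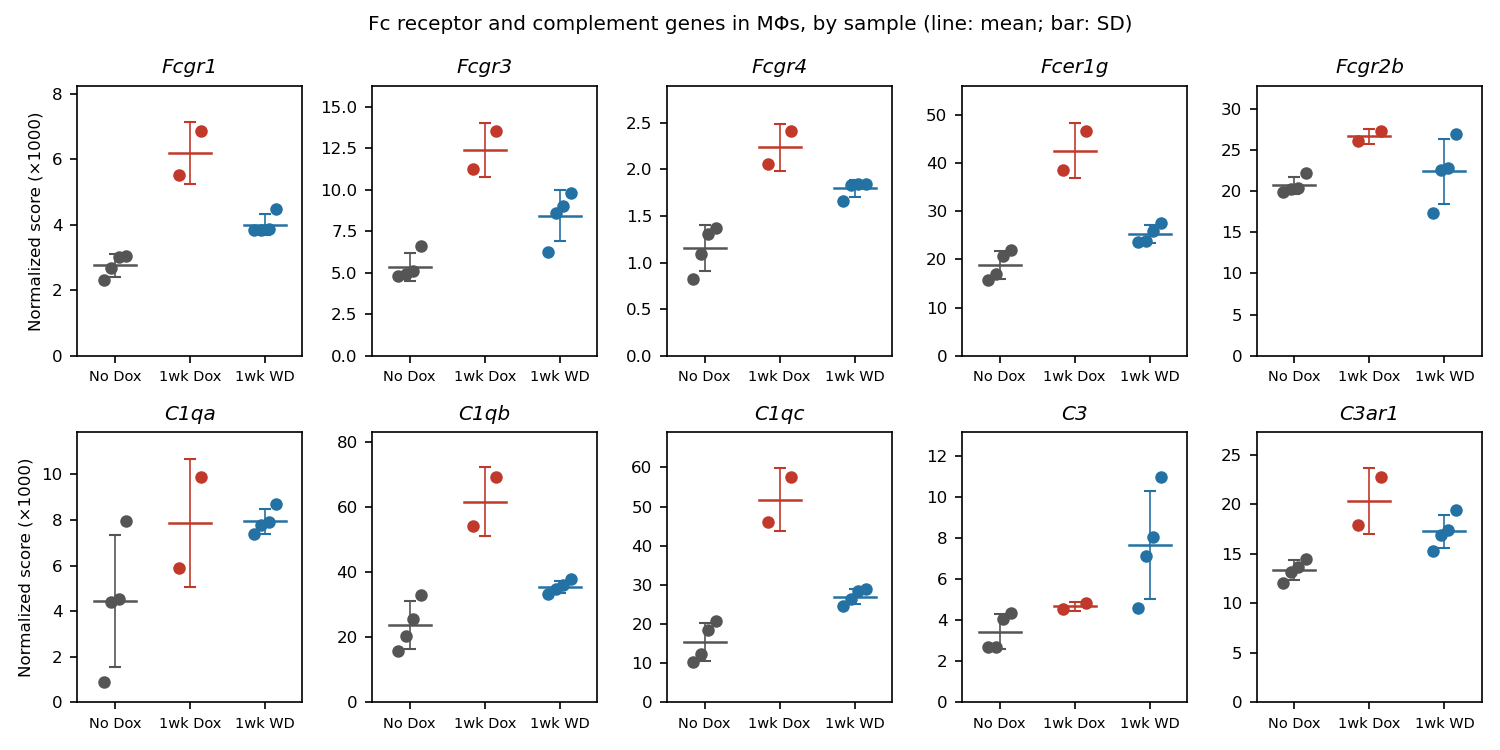
Scores (×1000) of the 10 genes in each MΦ sample at No Dox (4 samples), 1wk Dox (2), and 1wk WD (4), with the mean (line) and SD (bar). The 2 samples at 1wk Dox lie above all No Dox samples for every gene except C1qa, and C3 is highest at 1wk WD.

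Of the activating receptors, Fcgr1, the high-affinity IgG receptor, was at 2694, 3016, 2309, and 3046 at No Dox and at 6867 and 5516 at 1wk Dox. The groups did not overlap, and the log2 fold change was 1.16 ± 0.16 (SE, adjusted p = 0.00407, limma). Fcgr3, a low-affinity activating receptor, was at 4930, 5106, 4792, and 6620 at No Dox and at 13555 and 11281 at 1wk Dox. Both 1wk Dox samples were far above the highest No Dox sample, with a log2 fold change of 1.22 ± 0.19 (adjusted p = 0.00867, limma).

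Fcgr4, the other activating receptor, had scores of 830, 1094, 1310, and 1377 at No Dox and 2059 and 2413 at 1wk Dox. Its samples did not overlap either, but at 0.98 ± 0.20 (adjusted p = 0.0205, limma) it stayed just under the 2-fold threshold. It was called under 3 of 19 alternatives, at 1.01 with quantile normalization and at 1.05 and 1.07 without No Dox replicate 3 or 4. Fcer1g, the γ chain through which all 3 signal, was at 15799, 21868, 16909, and 20776 at No Dox and at 46616 and 38464 at 1wk Dox. The groups were well apart, with a log2 fold change of 1.18 ± 0.17 (adjusted p = 0.00552, limma).

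The inhibitory receptor gene Fcgr2b was at 20294, 19894, 20398, and 22248 at No Dox and at 27290 and 26024 at 1wk Dox. The samples did not overlap, yet the change was small, 0.37 ± 0.17 (95% interval 0.00 to 0.73, adjusted p = 0.234, limma), and was not called. The ratio of the Fcgr3 to the Fcgr2b score within a sample was 0.235 to 0.298 at No Dox, reached 0.497 and 0.433 in the 1wk Dox samples, and was 0.361 to 0.396 at 1wk WD. The Fcgr1 to Fcgr2b ratio was 0.113 to 0.152 at No Dox, 0.252 and 0.212 at 1wk Dox, and 0.167 to 0.222 after withdrawal. Both ratios were higher in every 1wk Dox and 1wk WD sample than in any No Dox sample, and no test was made of them.

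C1qc had the largest fold change of the members. It was at 12261, 18479, 10385, and 20685 at No Dox and at 57424 and 46080 at 1wk Dox. The lower 1wk Dox sample was above the highest No Dox sample by a wide margin, and the log2 fold change was 1.79 ± 0.24 (adjusted p = 0.00407, limma). C1qb, whose No Dox scores are given above, was at 69084 and 54234 at 1wk Dox, a log2 fold change of 1.42 ± 0.24 (adjusted p = 0.0101, limma) with no overlap.

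C1qa, the gene of the C1q A chain, was at 4513, 4398, 894, and 7958 at No Dox and at 9863 and 5878 at 1wk Dox. The third No Dox sample was far below the rest and the groups overlapped, so that a log2 fold change of 1.14 ± 0.60 was not called (95% interval -0.15 to 2.44, adjusted p = 0.299, limma). Without that sample, No Dox replicate 3, it was 0.49. The ratio of C1qa to C1qb was 0.057 in that sample, 0.172 to 0.241 in the other No Dox samples, 0.143 and 0.108 at 1wk Dox, and 0.212 to 0.233 after withdrawal. The 1wk Dox samples were below all others except that 1 sample. C1qc to C1qb was 0.599 to 0.723 at No Dox and higher in both 1wk Dox samples, 0.831 and 0.85, with 1wk WD between, at 0.737 to 0.785.

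**Figure D3:**
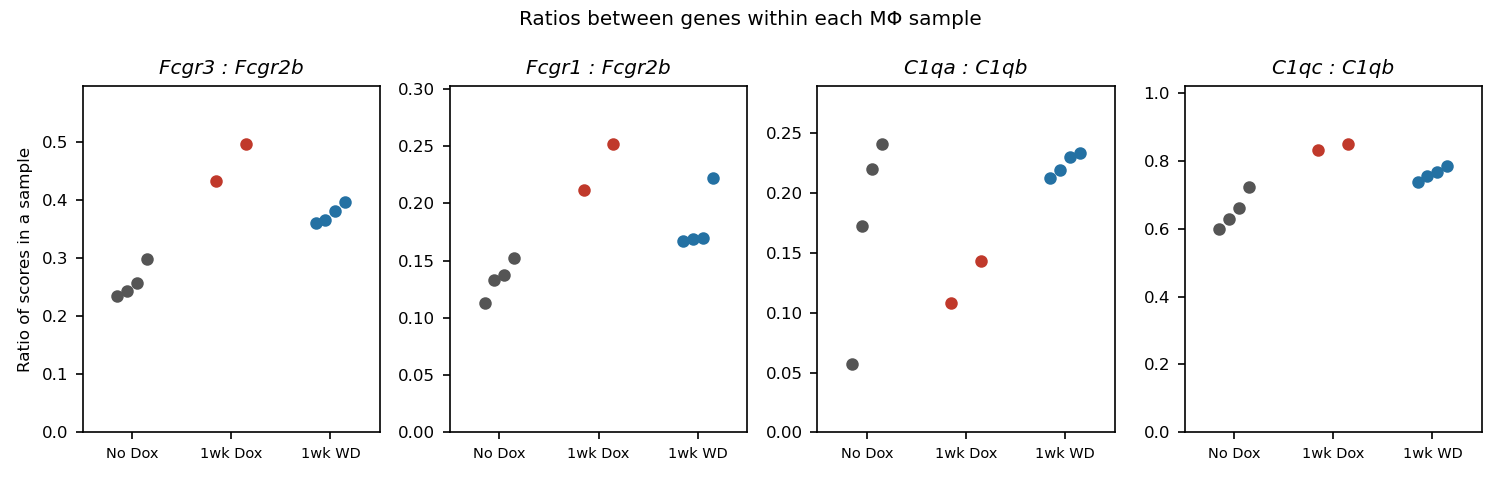
Ratios of 2 genes' scores within each MΦ sample at No Dox (4 samples), 1wk Dox (2), and 1wk WD (4), each axis starting at 0. Fcgr3 to Fcgr2b is 0.235 to 0.298 at No Dox and 0.433 or more at 1wk Dox, and C1qa to C1qb is lowest, at 0.057, in 1 No Dox sample.

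C3 was at 4842 and 4530 in MΦs at 1wk Dox. Both samples were just above the highest No Dox sample, 4336, and the log2 fold change of 0.48 ± 0.29 was not called (95% interval -0.15 to 1.11, adjusted p = 0.383, limma). C3ar1 was at 13691, 12084, 13206, and 14432 at No Dox and at 22711 and 17948 at 1wk Dox. Its samples did not overlap, and its log2 fold change of 0.60 ± 0.15 had an adjusted p of 0.0426 (limma) at less than 2-fold, so that it was not called.

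These calls rest on 2 samples at 1wk Dox, and 340 genes of the whole table were called in either direction. Without 1wk Dox replicate 4, 0 members and 0 genes of the table were called, while the log2 fold changes of the 5 called members were 1.00 (Fcgr1) to 1.63 (C1qc). Without 1wk Dox replicate 5, 3 members remained called (Fcgr1, Fcer1g, and C1qc), with C1qb at 1.60 and Fcgr3 at 1.35, and 49 genes of the table were called. Without No Dox replicate 2, 5 members and 487 genes were called.

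Other marker lists were measured in the same MΦ samples. Of 11 MΦ markers, 0 were called and 10 had a positive change, with a median of 0.59, and their summed score was 313661 to 409073 at No Dox and 462769 to 554128 at 1wk Dox. Monocyte markers had no called gene among 6 and sums of 38060 to 46696 and 36818 to 42480. Neutrophil markers had 0 of 5 called and sums of 7929 to 10125 and 7187 to 8020. Of 7 dendritic cell markers, Ccr7 was called higher and 3 were positive, with sums of 24899 to 33795 and 25343 to 27034. Of 10 pericyte and stromal markers, 0 were called and 8 were positive, with a median of 0.78 and sums of 3178 to 6207 and 5172 to 7347. B cell and T and NK cell markers had 0 called of 4 and of 5 tested, and sums of at most 1276 at No Dox and 902 at 1wk Dox. Of 5 proliferation genes, Mki67 and Ccnb1 were called higher and the sum went from 7694 to 15452 at No Dox to 20904 to 28565 at 1wk Dox. Endothelial markers had 0 of 10 called, 9 of 10 positive, and sums of 1762 to 2443 and 3600 to 4544, while β cell markers had 0 of 10 called. Acinar markers had 4 of 7 called lower, with sums of 22999 to 10490850 at No Dox and 848 to 3002 at 1wk Dox. No marker of these lists was at the lowest score in all MΦ samples of a group. Their part in the changes of the Fc receptor and complement genes was not tested, and in sorted bulk samples a change in the share of a cell type and a change in RNA per cell cannot be told apart.

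**Figure D4:**
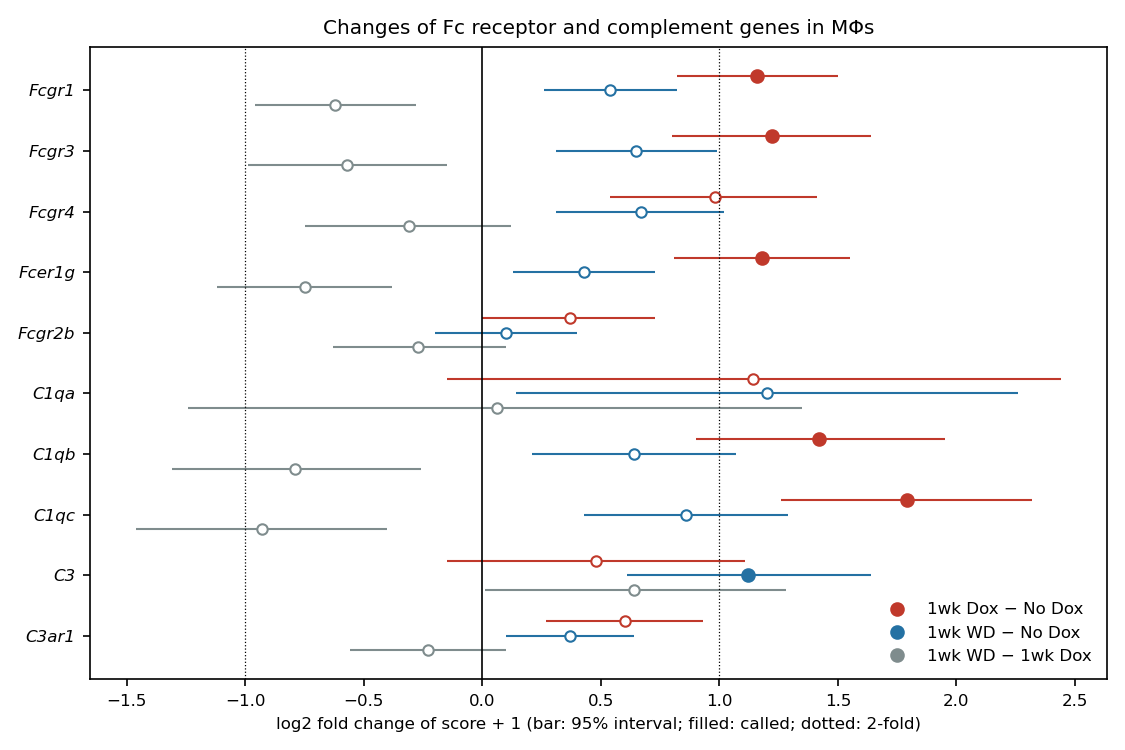
Log2 fold changes of score + 1 in MΦs for the 10 genes in 3 comparisons, with 95% intervals (limma). Filled points were called (2-fold, the dotted lines, and adjusted p under 0.05): 5 genes for 1wk Dox against No Dox, and C3 for 1wk WD against No Dox.

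At 1wk WD, mean MΦ scores of the Fc receptor genes, C1qb, C1qc, and C3ar1 lay between those of the other time points, while C3 was highest and C1qa, at a mean of 7941, was level with its 7870 at 1wk Dox. Against No Dox, 1 of the 10 members was called higher, C3, where 0.42% of genes were called higher. In 7 of the 10 all 4 samples at 1wk WD lay above all No Dox samples (Fcgr1, Fcgr4, Fcer1g, C1qb, C1qc, C3, and C3ar1), as in 4.98% of all genes tested. The median log2 fold change was 0.64 over the 10 and 0.00 over all genes tested. MΦ markers were also higher in these samples, with 0 of 11 called, 10 of 11 positive, a median of 0.50, and sums of 463491 to 558587 that lay above the 313661 to 409073 of No Dox. Acinar markers had 0 of 7 called and 0 of 7 positive, with a median of -6.60 and sums of 1384 to 190012 against 22999 to 10490850 at No Dox. Their part in the scores of the members was not tested.

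C3 was at 4581, 7129, 8039, and 10942 at 1wk WD. All 4 were above the highest No Dox sample, the lowest only narrowly, and the log2 fold change was 1.12 ± 0.24 (SE, adjusted p = 0.0429, limma). The call was close to its threshold: under 12 of 19 alternatives C3 was no longer called, with log2 fold changes of 0.93 to 1.35 over all 19. Those 12 include leaving out No Dox replicate 1, 2, or 4, either 1wk Dox replicate, or 1wk WD replicate 2, 3, or 4, where the log2 fold change was 0.93 to 1.24. The stromal marker sums of these samples were 2963, 9868, 11462, and 6109 in the same order, against 3178 to 6207 at No Dox, with 0 of 10 markers called, 10 of 10 positive, and a median of 1.05, and their part in the C3 scores was not tested.

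Fcgr1 was at 3852, 3863, 3832, and 4495 at 1wk WD, and Fcer1g at 23766, 27542, 23605, and 25972. Both were above every No Dox sample and below both 1wk Dox samples. Against No Dox, the log2 fold changes were 0.54 ± 0.13 for Fcgr1 (adjusted p = 0.0607, limma) and 0.43 ± 0.14 for Fcer1g (adjusted p = 0.136), and neither was called.

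C1qb was at 34828, 37760, 33321, and 36105 at 1wk WD, and C1qc at 26321, 28907, 24565, and 28328. The 4 samples of each gene lay close together, above all No Dox and below both 1wk Dox samples. Their log2 fold changes from No Dox, 0.64 ± 0.20 for C1qb and 0.86 ± 0.20 for C1qc, had adjusted p = 0.125 and 0.0542 (limma), and C1qc was called, at 1.02, without No Dox replicate 4. C1qa was at 7400, 8697, 7759, and 7907, with the highest No Dox sample, 7958, inside this range.

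The other receptors followed at 1wk WD with 6268, 9036, 8621, and 9844 for Fcgr3, and 1849, 1842, 1662, and 1836 for Fcgr4. Fcgr3 overlapped No Dox by its first sample, and Fcgr4 did not overlap it. Fcgr2b, at 17359, 22798, 22543, and 26977, spread around the No Dox level (0.10 ± 0.14, 95% interval -0.20 to 0.40, adjusted p = 0.745, limma). C3ar1 was at 15329, 19433, 17405, and 16900, above all No Dox samples (0.37 ± 0.12, adjusted p = 0.151).

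Between 1wk WD and 1wk Dox, 0 of 10 members were called by limma, where 0.0866% of genes were called. An unadjusted p under 0.05 was found for 6 of the 10, and for 9.7% of all genes tested. All 4 samples at 1wk WD lay below both 1wk Dox samples for 6 members (Fcgr1, Fcgr3, Fcgr4, Fcer1g, C1qb, and C1qc), as in 16.6% of all genes tested. C1qc and C1qb had the largest differences, -0.93 ± 0.24 (adjusted p = 0.208, limma) and -0.79 ± 0.24 (adjusted p = 0.292), and C3 was the member with the largest positive one, 0.64 ± 0.29 (adjusted p = 0.503). The 2 comparisons with No Dox share the No Dox samples, and those with 1wk Dox share its 2 samples.

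Other genes of these pathways were counted in MΦs by list, beside 1.61% of all genes called higher at 1wk Dox and 0.42% at 1wk WD. Of 15 further complement components tested, 3 were called higher at 1wk Dox and 0 lower: Cfb, encoding factor B of the alternative pathway, C2 of the classical pathway, and Cfp, which encodes properdin, a stabilizer of the C3 convertase. Cfb was at 79, 31, 47, and 38 at No Dox, 266 and 300 at 1wk Dox, and after withdrawal 153, 191, 208, and 246. C2 was at 78, 40, 60, and 46 at No Dox, 339 and 278 at 1wk Dox, and after withdrawal 134, 202, 210, and 243. Both were low genes with no overlap between any of the 3 groups. At 1wk Dox they were called at 2.60 ± 0.44 (Cfb) and 2.48 ± 0.42 (C2) on the log2 scale (adjusted p = 0.0101 for each, limma), and both were also called at 1wk WD against No Dox, at log2 fold changes of 2.08 ± 0.36 (Cfb, adjusted p = 0.0229, limma) and 1.81 ± 0.34 (C2, adjusted p = 0.0286).

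C4b, a gene of complement C4, was the third component called at 1wk WD, with 593, 968, 711, and 1429 against 383, 213, 158, and 258 at No Dox (1.86 ± 0.32, adjusted p = 0.0225, limma). Cfp was at 1879 to 2327 at No Dox and rose to 6999 and 4691 at 1wk Dox (1.45 ± 0.23, adjusted p = 0.0092, limma). Of 10 complement regulators tested, 0 were called at either time. Of 11 complement receptors, Cd93, once proposed as a C1q receptor, was called higher at 1wk Dox, at 29079 and 25367 against 9675 to 11553 at No Dox (1.38 ± 0.14, adjusted p = 0.000988, limma).

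Among 11 other Fc receptor genes tested in MΦs, 1 was called, and it was called at both times. Fcrls, an Fc receptor-like gene, was at 1967 to 2547 at No Dox, 6578 and 4340 at 1wk Dox, and 4273 to 6771 after withdrawal (1.27 ± 0.21 and 1.38 ± 0.17 against No Dox, adjusted p = 0.0101 and 0.00496, limma). Of 19 genes of Fc receptor signalling, 1 was called at 1wk Dox and 0 at 1wk WD. That gene was Tyrobp, which encodes an adaptor related to the γ chain, at 26606 and 20429 against 8722 to 17477 at No Dox (1.01 ± 0.24, adjusted p = 0.035, limma). The median change over these 19 genes was -0.17 at 1wk Dox, against 1.18 for Fcer1g itself.

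ECs were compared between 1wk WD and No Dox. The C1q genes and the 4 Fcγ receptor genes did not reach a mean score of 20 in either group, and so 3 of the 10 members were tested, of which 0 were called by limma (1.76% of 14167 genes were called) and 0 had an unadjusted p under 0.05, as 21.9% of all genes tested did. Fcer1g was at 408, 529, 567, 278, and 294 at 1wk WD, overlapping No Dox (-0.12 ± 0.24, SE, 95% interval -0.64 to 0.41, adjusted p = 0.808, limma). C3ar1, at 190, 233, 167, 128, and 172, overlapped too (-0.21 ± 0.21, 95% interval -0.66 to 0.24, adjusted p = 0.575). C3 was at 82, 53, 30, 75, and 79, with 4 of the 5 samples above the No Dox median, and the difference of 1.07 ± 0.53 was not called (95% interval -0.08 to 2.22, adjusted p = 0.261).

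The untested members stayed at 1 to 19 in ECs at 1wk WD, with C1qc the highest. The single EC sample at 1wk Dox had no replicate and was not tested. It had Fcer1g at 589, above the 352 to 554 of No Dox, and C3ar1 at 82, below the 190 to 215 of No Dox. C3 was at 7 there and every other member at 8 or lower.

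Complement genes outside the 10 were called in ECs. C1s, encoding a protease of the C1 complex, was at 74, 144, 63, and 222 at No Dox and at 730, 339, 305, 1018, and 443 at 1wk WD (2.19 ± 0.42, adjusted p = 0.017, limma). Masp1, a protease gene of the lectin pathway, and Lrp1, a large endocytic receptor gene, were also called higher, at 2.00 ± 0.23 (adjusted p = 0.00168, limma) and 1.44 ± 0.30 (adjusted p = 0.0228). Called higher were thus 2 of 9 components and 1 of 7 receptors tested, where 1.28% of all genes were. In the same samples 4 of 9 pericyte and stromal markers were called higher, and the summed score of all 10 was 5637 to 12607 at No Dox and 16858 to 70818 at 1wk WD, with no marker at the lowest score throughout. Acinar markers were called lower in 7 of 7, with a median of -6.58 and sums of 57488 to 1533317 at No Dox and 675 to 55678 at 1wk WD. The part of such cells in the change of these complement genes was not tested.

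Whether the response to withdrawal differed between MΦs and ECs was tested by the interaction of cell type and time. It could be asked of 3 members, since the other 7 (the 4 Fcγ receptor and 3 C1q genes) did not reach a mean score of 20 in ECs, entered the fit through their MΦ scores, and have no EC response to set beside that of MΦs. Of Fcer1g, C3, and C3ar1, 0 were called by limma (1.4% of 15603 genes were), and C3ar1 had an unadjusted p under 0.05 (0.58 ± 0.20, adjusted p = 0.121), as did 21.2% of all genes tested. The differences of Fcer1g and C3 had 95% intervals of -0.06 to 1.15 and -1.27 to 1.37.

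In β cells no member changed in a called way. Fcgr4 did not reach a mean score of 20, and of the 9 members tested 0 were called at 1wk Dox against No Dox (0.0122% of 16346 genes were called, 2 genes), 0 at 1wk WD against No Dox (0.0% of genes), and 0 at 1wk WD against 1wk Dox (0.0% of genes), by limma. At an unadjusted p under 0.05 the counts were 0, 0, and 1, against 6.99%, 8.17%, and 6.31% of all genes tested. Fcgr1 counted among the 9 through 1wk WD alone, where its samples were at 5, 2, and 53. Its means at No Dox and 1wk Dox were below 20, so that its test between those groups cannot show whether it changed. Intervals were wide: that of Fcer1g at 1wk Dox against No Dox ran from -2.15 to 0.58 on the log2 scale.

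C3 varied most in score among the members in β cell samples. It was at 1037, 620, 4405, and 10701 at No Dox, 1782, 1500, 1781, 1892, and 906 at 1wk Dox, and after withdrawal 6582, 5493, and 1002. The time points overlapped. In the same order the stromal marker sums were 1031, 1125, 153817, and 540417 at No Dox, 505631, 163347, 285223, 446322, and 107869 at 1wk Dox, and after withdrawal 369149, 335307, and 25966. The 3 samples with stromal sums of 25966 or less had C3 at 1037, 620, and 1002. At 1wk Dox, C3 stayed at 1500 to 1892 where the stromal sum was 163347 to 505631, and was 906 at the lowest sum, 107869. The summed scores of the 11 MΦ markers, in the same order, were 989, 605, 4758, and 8873 at No Dox. They were 4580, 2378, 3829, 8138, and 2130 at 1wk Dox, and 12911, 8987, and 8409 after withdrawal. Within each time point C3 ranked in the order of the MΦ marker sum. The order of the stromal sum differed from that of C3 at No Dox and 1wk Dox. The part of stromal cells or MΦs in the C3 scores was not tested. C3 stood at 13.1% to 311% of the mean MΦ score of the same time, above each of the 11 MΦ markers in all 12 β cell samples.

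In most β cell samples at No Dox and 1wk Dox, C1qa was well above C1qb and C1qc. At No Dox it was at 301, 83, 49, and 139, where C1qb was at 8, 8, 1, and 134 and C1qc at 10, 1, 8, and 137. At 1wk Dox C1qa was at 95, 128, 150, 33, and 102, with C1qb and C1qc at 32 or lower. The exceptions were No Dox replicate 4, where the 3 chains were level, and 1wk Dox replicate 4, with C1qa at 33 and C1qb at 27. After withdrawal C1qa was at 1, 12, and 380 against 1, 28, and 718 for C1qb, and so above it in none of these samples. In every MΦ sample C1qa was at most 0.241 of C1qb.

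Fcgr2b in β cells was at 20, 20, 378, and 620 at No Dox, 52, 28, 61, 56, and 49 at 1wk Dox, and after withdrawal 287, 359, and 455. All 1wk WD samples lay above all 1wk Dox samples for Fcgr2b and C3ar1, 2 of the 9 members tested (as in 2.97% of genes tested), with Fcgr2b at 2.89 ± 1.05 on the log2 scale (unadjusted p = 0.0177, adjusted p = 0.675, limma). Of the 11 MΦ markers, 0 were called and 9 were positive in this comparison, with sums of 2130 to 8138 at 1wk Dox against 8409 to 12911 after withdrawal. Their part in the scores of the members was not tested.

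Replicate 3 of the β cells at 1wk WD carried every member. The labels number its library apart from the other 1wk WD β cell libraries and next to those of the 1wk Dox MΦs. With it as without it, 0 members were called in β cells at 1wk WD against either other time point. In it C1qb was at 718, C1qc at 692, Fcer1g at 671, C1qa at 380, and Fcgr3 at 131. These scores were 1.24% to 4.79% of the mean MΦ level of that time for all members but C3, within the range of the MΦ markers in that sample, 0.0479% to 5.06%. In the other 2 samples at 1wk WD, C1qb was at 1 and 28 and C1qc at 2 and 32.

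**Figure D5:**
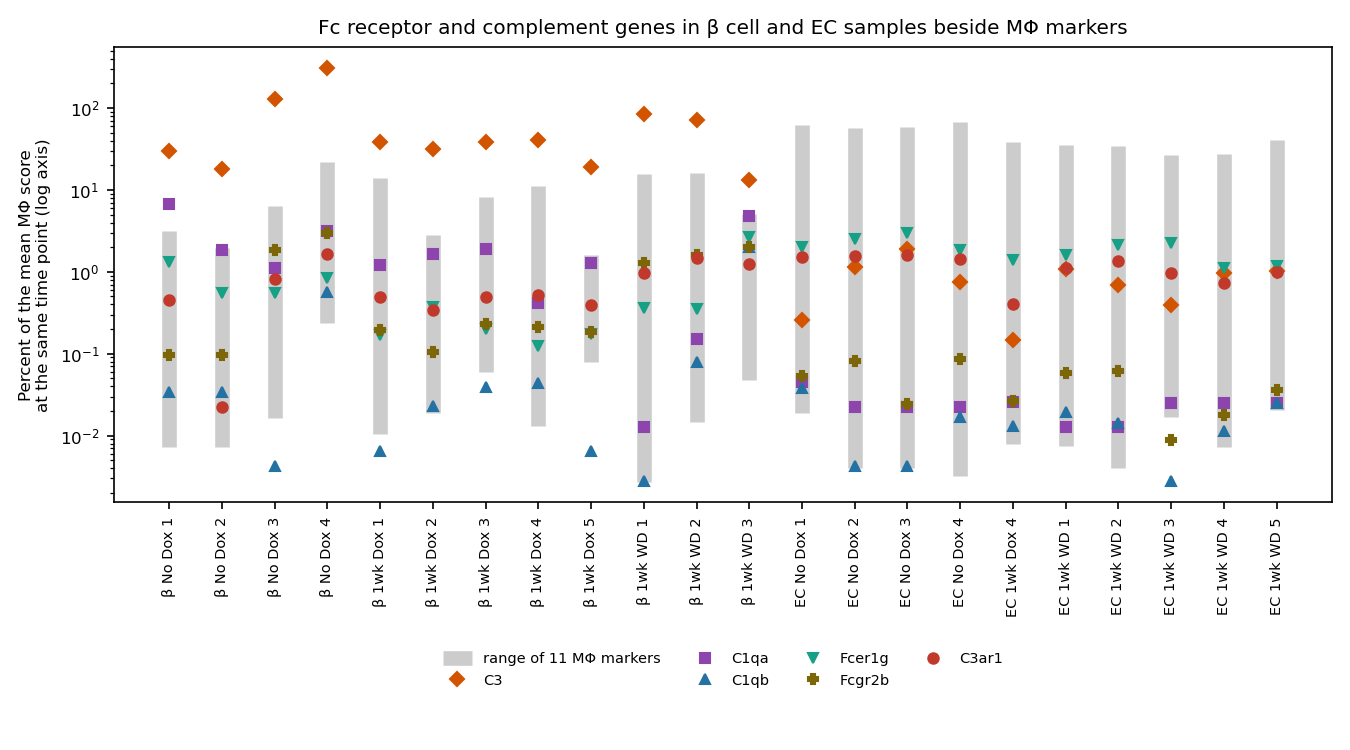
Scores of 6 of the 10 genes in each β cell and EC sample as a percent of the mean MΦ score at the same time point (log axis), with grey bars for the range of 11 MΦ markers. C3 lies above the bar in all 12 β cell samples, at 13.1% to 311%, and Fcer1g lies at 1.1% to 2.94% in ECs.

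The genes whose mean log2 scores over the 9 groups were most like those of a member, after centring, were listed by the root mean square difference over 16968 genes. C1qb and C1qc were nearest to each other, at 0.32, followed for both by Ms4a7. Fcgr1 was nearest to Fcrls (0.38), Clec4n (0.44), and Ccl12 (0.45), and Fcgr4 to Aif1 and Pilrb2 (0.35 each) and Ms4a6c (0.40). Fcgr2b had AF251705 at 0.22, then Gpr141 (0.50) and Clec7a (0.52). For Fcgr3 the nearest were Mrc1 (0.52), Pilrb2 (0.60), and Fcgr4 (0.67), for Fcer1g Gpr77 (0.55), Gm20425 (0.59), and Hsf3 (0.60), and for C3ar1 Abcg3 (0.38) and Emilin2 (0.52). C1qa had no gene as near, with Tifab and P2ry13 at 0.68 and Il1rn at 0.89, and C3 had Celf2 (0.53), Dapk1 (0.59), and Psd4 (0.60). The 9 groups share 3 cell types, which set most of these values.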

How the data were processed

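RNA of sorted β cells, ECs, and MΦs from pooled islets was amplified with the NuGEN Ovation kit by the authors, sequenced as 50 bp paired-end reads, aligned to mm9 with TopHat2 2.0 (version per the labels), and TMM-normalized with Avadis NGS. What the authors deposited are scores, these normalized values as whole numbers, the lowest being 1. They are not read counts and reads could not be recovered, so depth is unknown, and low scores are imprecise. Of the table's sample columns, 32 were matched to the samples by their labels, and 6 that belong to another data series were not used. Leaving these out makes the 1wk Dox groups of ECs and MΦs small here.

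The test was limma 3.58.1 (R 4.3.3) on log2(score + 1), with moderated variances that follow a trend on mean expression. It was checked on simulated data with independent noise, for the first comparison of each fit, and so not for effects of library preparation. The test was fitted within β cells and MΦs over 3 time points, and within ECs over No Dox and 1wk WD. It was also fitted across the 3 cell types at No Dox, and for the interaction of MΦs and ECs with withdrawal. A gene was tested where its mean score reached 20 in any group of the fit, and Benjamini-Hochberg adjustment was over all of them. A fold change of log2(score + 1) understates changes of low genes. A gene was called at 2-fold or more and an adjusted p under 0.05. The members, the lists of other Fc receptor, complement, and marker genes, and the tests were chosen with earlier results of these data known. All 10 members are named, other listed genes where they were called in a time comparison, and the 3 genes nearest to each member. For MΦs against ECs, up to 3 called genes per list and direction with the largest differences are named too. Mertk, Cd68, Cd14, Emr1, Mki67, Ccnb1, and Ccr7 were named after their values were seen. Results of some genes under this rule are not reported here.

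Alternatives were pseudocounts of 0.1 and 20, no filter, a minimum of 200, scaling by median of ratios, quantile normalization, no trend, the replicate number as a block, only the 2 groups compared, the 1wk Dox EC sample added, and each replicate left out. Sequence windows came from GENCODE M1 transcripts, and promoters from RefSeq. Python 3.11.15, pandas 2.3.3, numpy 2.4.6, and matplotlib 3.10.9 were used for summaries and figures.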

Additional observations from a re-analysis of the deposited data

Results flagged for a closer look

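Among 58 combinations of a member and a group of 4 or 5 samples, 7 held a sample far from the others, by the gap to its nearest neighbour as a share of the group's range, both on log2(score + 1) (Dixon's criterion). Chance alone puts about 1 in 20 groups past it. In MΦs at 1wk WD, Fcgr1 was highest in replicate 4, at 4495 against 3832 to 3863 in the others, a share of 0.95, and Fcgr4 was lowest in replicate 3, at 1662 against 1836 to 1849, a share of 0.934. In β cells at 1wk Dox, Fcgr2b was lowest in replicate 2, at 28 against 49 to 61, a share of 0.717 that falls to 0.636 on the scores themselves, under the critical value of 0.71, and Fcgr1 was at 6 in replicate 1 and at 1 in the other 4, a share of 1.0. The last 3 lie at the lowest scores, each with a share of 1.0: Fcgr1 in ECs at 1wk WD, at 4 in replicate 5 and 1 elsewhere, and C1qa and C1qc in ECs at No Dox, at 2 and 4 in replicate 1 and 1 elsewhere.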

How the results depend on the processing

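Counts of called members differed by over 1.5 times in 2 of the 11 comparisons. For MΦs at 1wk Dox against No Dox, 5 were called (340 genes of the whole table), and the count was 3 with no trend (52 genes), 2 with only the 2 groups compared (38 genes), 0 with the replicate number as a block (3 genes), and 0 to 6 with 1 replicate left out (0 to 487 genes), where the lone 1wk Dox sample left is assumed to vary like the other groups. For MΦs at 1wk WD against No Dox, 1 was called (94 genes), and the count was 0 with no filter (37 genes), with no trend (11), with only the 2 groups (49), and with the replicate block (43), and 0 to 1 with 1 replicate left out (23 to 123 genes). The cause was not tested, except that fewer samples enter the fits of 2 groups and with a replicate left out. Replicate numbers showed no pairing of MΦ samples across time points. Deviations of same-numbered MΦ samples at No Dox and 1wk WD correlated at -0.106 to 0.0341, and both 1wk Dox samples share only 1 number with the No Dox samples. Between cell types at No Dox, same-numbered samples correlated at -0.106 to 0.371 (ECs and MΦs), -0.148 to 0.0293 (β cells and ECs), and -0.187 to 0.0432 (β cells and MΦs). Pairing between cell types is not excluded, and the main fit treated these samples as independent. In the other 9 comparisons the count kept within 1.5 times under all alternatives run. Of 1023 fold changes of members under an alternative, 4 changed sign, and none of these was called under either setting. Since depth is unknown, no limit of detection can be set for scores near 1.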
